A study of Mus musculus with 4 samples.

Results

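The genes that carry a cell through G2 phase and mitosis were examined in sorted embryonic mouse microglia with a conditional deletion of Arid1a. The set holds 60 genes, chosen by name for their roles as cyclins and mitotic kinases, checkpoint and anaphase factors, kinesins, kinetochore, spindle and cytokinesis proteins, chromosome proteins and transcription factors. All 60 were in both deposited tables, which share 16655 genes, and all 60 were among the 15236 genes with enough reads to test, so none was lost to the filter on low counts. Read counts were available for 1 library of Arid1a cKO microglia (Arid1acKO genotype, replicate 2) and 2 libraries of control microglia (Arid1afl/fl genotype, replicates 5 and 6), all from C57BL/6 mice at embryonic day 14. Knockout replicate 1 was not analysed here. Both alleles are floxed in the controls, and the Cre driver that deletes Arid1a in the knockouts is not named in the sources used here. The cells were sorted by fluorescence from telencephalic cortex, and nothing in the labels says whether a sample came from 1 embryo or several, so the spread between the controls may be technical. The knockout library has no replicate, and in what follows its values carry no replicate error.

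The libraries held 17262261 counted reads (knockout), 18608979 (control 5) and 13774075 (control 6). Levels are given as CPM, the reads of a gene as a share of its library after scaling by edgeR's TMM factors, and are not corrected for gene length unless stated. Arid1a, whose protein binds DNA within the BAF remodelling complex, had 68.9 CPM in the knockout library, against 109 in control 5 and 130.4 in control 6 (log2 fold change -0.80, SE 0.41), lowest in the library labelled knockout but not past the test. These counts cover all exons, and which exons are floxed is not given in the sources used here, so reads from deleted exons were not counted apart. Among 13 microglia markers, the knockout library was below both controls in 11 and above both in 0. Over all tested genes it was below both for 31.1% and above both for 38.0%. Siglech had 58.3 CPM in the knockout library, against 918 in control 5 and 1057 in control 6. Tmem119 had 583 CPM in the knockout library, against 1535 in control 5 and 2266 in control 6. The markers summed to 18122 CPM in the knockout library, against 25299.9 in control 5 and 34572 in control 6. The part of this difference in the mitotic values was not tested. Neural progenitors divide in the same tissue. Of 13 of their markers, Sox2 and Eomes were not analysed here, and the other 11 summed to 116 CPM in the knockout library, against 123 in control 5 and 141 in control 6, with the knockout library below both controls in 3 and above both in 3. Most of that sum was Nes, with 97.0 CPM in the knockout library, against 97.0 in control 5 and 113 in control 6.

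Entry into mitosis depends on the kinase Cdk1 bound to a B-type cyclin, which the phosphatases of the Cdc25 family switch on. The spindle then forms with the help of Aurora and Polo-like kinases and motor proteins, a checkpoint at the kinetochores holds the cell until every chromosome is attached, and the anaphase-promoting complex with Cdc20 marks cyclin B and securin for destruction. Most of these genes are transcribed only late in the cell cycle, under the MuvB complex with B-Myb and FoxM1, and they are kept silent in resting cells by the DREAM complex. In the embryonic brain, microglia divide while they colonise the tissue, so in whole-population RNA these transcripts follow both the share of cells in cycle and the amount of RNA per dividing cell, which cannot be told apart.

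In the Arid1a cKO library, mitosis and G2/M transcripts were present at levels close to those of the controls, with small differences that were more often downward than upward. The 60 genes together summed to 4585 CPM in the knockout library, against 5909 in control 5 and 5242 in control 6. As a share of raw reads that was 0.485% in the knockout library (95% Wilson interval 0.482% to 0.488%), against 0.569% in control 5 and 0.514% in control 6. The knockout library was the lowest of the 3, and on the CPM scale the controls differed from each other by about as much as the knockout library differed from control 6. With 1 library against 2, an exact permutation test of a single value cannot give a p below 0.333, so the sums carry no test.

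No member passed the test over all genes (0 of 60 at an adjusted p under 0.05, edgeR quasi-likelihood with Benjamini-Hochberg adjustment, where 6 of 15236 genes, 0.0394%, passed, 0.0263% lower and 0.0131% higher). The DESeq2 Wald test also passed 0 of the 60, where it passed 223 of all genes. At an unadjusted p under 0.05, 3 members were lower, Cdc25c, Hmmr and Anln, beside 3.54% of all genes, and 0 were higher, beside 2.46%. The fitted log2 fold change was under 0 in 43 of the 60, beside 47.5% of all tested genes and 4890 of those 9711. The members' median log2 fold change was -0.16, against 0.05 over all tested genes and -0.006 over those at a mean of 5 CPM or more. Single members ranged from -1.61 (Cdc25c) to 0.78 (Mybl2). The knockout library lay below both controls in 31 of the 60 members, or 51.7%, where it did so for 31.1% of all tested genes and for 35.3% of those at a mean of 5 CPM or more, the range in which every member lay. It lay above both in 14, or 23.3%, against 38.0% of all genes and 35.8% of those at a mean of 5 CPM or more. It lay between them in the other 15. The differences were small. The knockout library was at least 1.5-fold below both controls in 8 members, 13.3%, a share near the 13.1% of all genes and 11.4% of those at a mean of 5 CPM or more. It was at least 1.5-fold above both in 0 members, against 16.2% of all genes and 9.56% of those at a mean of 5 CPM or more. It lay below both by more than the gap between the controls in 16 members, against 2128 (14%) of all 15236 genes, and above both by more than that gap in 4, against 22.5%. Of the 9711 genes at a mean of 5 CPM or more, 1610 were below and 1926 above by more than that gap. By the control means, 56 of the 60 stood within 2-fold.

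The size of the difference depended on the scaling of the libraries and on which control was used. The knockout library was below control 5 in 41 members, where it was so for 44.5% of all genes. It was below control 6 in 36 members, where it was so for 48.7% of all genes. The members' median log2 ratio was -0.25 over control 5 and -0.14 over control 6. The 2 controls were themselves apart, with control 5 above control 6 in 44 of the 60 members and a median log2 ratio between them of 0.17. Scaled by library totals alone, the knockout library was below both controls in 24 members and above both in 18, where it was below both for 26.3% and above both for 44.3% of all genes, and the members' median was -0.04. That scaling moved the median of all genes to 0.17. In the authors' deposited tables, the log2 fold change of their normalised values was under 0 in 35 of the 60 members over control 5 and in 31 over control 6. The share over all genes was not computed for those values.

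**Figure D1:**
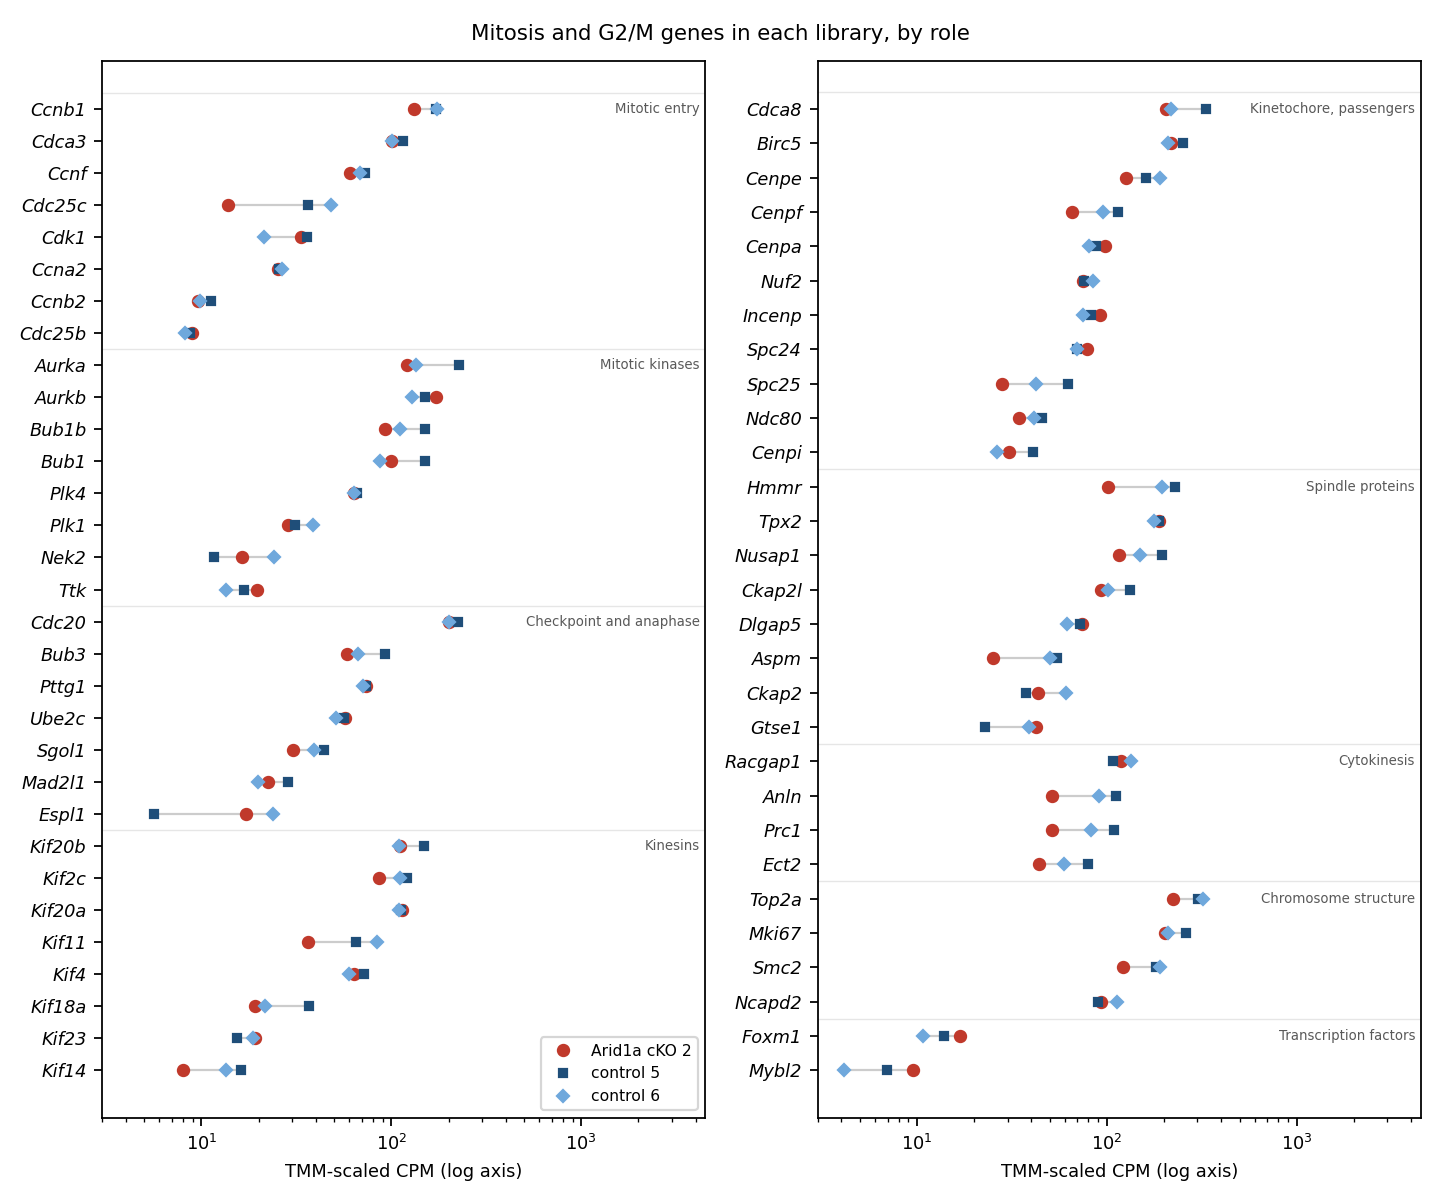
Level of each of the 60 mitosis and G2/M genes in each library, as TMM-scaled CPM on a log axis, grouped by role and ordered within a role by the mean of the controls. Red circles are the single Arid1a cKO library, dark squares control 5 and light diamonds control 6; in most rows the 3 points lie close together, and the widest gaps below both controls include those of Cdc25c, Hmmr, Aspm, Kif11 and Anln.

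The promoters of these genes share the letters that the MuvB and NF-Y complexes are known to bind. Promoter windows from 250 bases before to 50 bases after an annotated start (RefSeq, GRCm38.p6) were matched for 50 of the 60 members, giving 54 windows. The cell cycle homology region TTTGAA, searched on both strands, was in 38 of the 54 member windows (70.4%), against 17.9% of all 32851 windows in the table. Its variant TTCGAA was in 4 member windows (7.41% against 1.56% of all windows). The letters CCAAT, on either strand, were in 42 member windows (77.8% against 37.4%), and 2 or more copies were in 50.0% against 11.7%. TTTGAA and CCAAT stood together in 63.0% of member windows and 6.95% of all windows. The E2F letters TTTGGCGC or TTTCGCGC were in 3 member windows (5.56% against 0.810%). These are matches of letters, with no measure of binding.

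From the described members whose window holds both TTTGAA and CCAAT, 6 were taken for printing in the order of unadjusted p by edgeR. Others, such as Smc2 and Top2a, also hold both and are not printed. The 6 windows printed here belong to members for which the knockout library lay below both controls. They are Hmmr, chr11:40733388-40733687, minus strand, Kif11, chr19:37376132-37376431, plus strand, Aspm, chr1:139454523-139454822, plus strand, Prc1, chr7:80294201-80294500, plus strand, Spc25, chr2:69206164-69206463, minus strand, and Cenpf, chr1:189688037-189688336, minus strand. Each is written 5′ to 3′ on the gene's strand, with TTTGAA or its reverse complement and CCAAT or its reverse complement in capitals, and no 2 matches overlap. In each the TTTGAA match lies next to the annotated start, at -19 to 24 bases from it, with the CCAAT matches upstream of it.
Hmmr: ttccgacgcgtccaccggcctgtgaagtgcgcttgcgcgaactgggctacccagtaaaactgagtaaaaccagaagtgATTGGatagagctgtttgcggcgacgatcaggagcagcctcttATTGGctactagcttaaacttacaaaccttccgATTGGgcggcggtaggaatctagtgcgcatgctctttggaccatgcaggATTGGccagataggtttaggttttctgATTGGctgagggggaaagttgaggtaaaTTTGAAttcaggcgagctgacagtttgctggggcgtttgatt
Kif11: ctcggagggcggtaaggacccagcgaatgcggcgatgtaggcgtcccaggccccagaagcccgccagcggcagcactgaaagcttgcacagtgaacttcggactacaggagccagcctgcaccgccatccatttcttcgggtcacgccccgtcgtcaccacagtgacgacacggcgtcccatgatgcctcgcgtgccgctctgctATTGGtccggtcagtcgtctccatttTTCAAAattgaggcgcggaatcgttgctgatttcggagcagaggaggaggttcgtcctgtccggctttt
Aspm: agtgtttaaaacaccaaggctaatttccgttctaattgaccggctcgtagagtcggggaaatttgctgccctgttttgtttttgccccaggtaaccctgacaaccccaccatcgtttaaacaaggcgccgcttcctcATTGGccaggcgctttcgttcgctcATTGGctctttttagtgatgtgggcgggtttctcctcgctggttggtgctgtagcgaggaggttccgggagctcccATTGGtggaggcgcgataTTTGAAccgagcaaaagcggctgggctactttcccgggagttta
Prc1: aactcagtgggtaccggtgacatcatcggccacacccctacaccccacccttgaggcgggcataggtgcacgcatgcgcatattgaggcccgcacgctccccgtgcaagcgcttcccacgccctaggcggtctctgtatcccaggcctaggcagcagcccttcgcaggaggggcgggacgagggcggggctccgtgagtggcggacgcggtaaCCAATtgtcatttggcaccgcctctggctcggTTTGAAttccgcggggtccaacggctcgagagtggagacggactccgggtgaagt
Spc25: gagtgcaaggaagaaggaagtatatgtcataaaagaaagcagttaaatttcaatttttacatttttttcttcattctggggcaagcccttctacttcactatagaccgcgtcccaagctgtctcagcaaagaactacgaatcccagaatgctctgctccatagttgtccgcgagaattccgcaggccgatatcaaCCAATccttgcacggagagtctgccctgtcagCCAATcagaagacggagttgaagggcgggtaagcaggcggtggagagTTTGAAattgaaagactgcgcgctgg
Cenpf: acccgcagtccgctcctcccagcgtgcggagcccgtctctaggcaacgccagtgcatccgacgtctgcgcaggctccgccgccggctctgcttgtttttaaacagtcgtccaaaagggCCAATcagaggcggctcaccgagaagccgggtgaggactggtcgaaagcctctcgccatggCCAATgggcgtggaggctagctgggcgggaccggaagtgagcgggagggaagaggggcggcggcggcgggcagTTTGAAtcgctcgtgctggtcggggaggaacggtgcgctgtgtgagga
Hmmr held 5 CCAAT matches, Aspm 3, and Kif11 and Prc1 1 each. Over the 31 members whose window held both motifs, the knockout library was below both controls in 20 and above both in 4, at a median log2 fold change of -0.29. It was below both for 31.1% of all tested genes and 35.3% of those at a mean of 5 CPM or more, and above both for 38.0% and 35.8%. The 19 members whose window lacked 1 or both had a median of -0.14, with 8 below and 3 above, and the 10 members with no window in the table had 0.09, with 3 below and 7 above. Whether these sets differ was not tested.

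**Figure D2:**
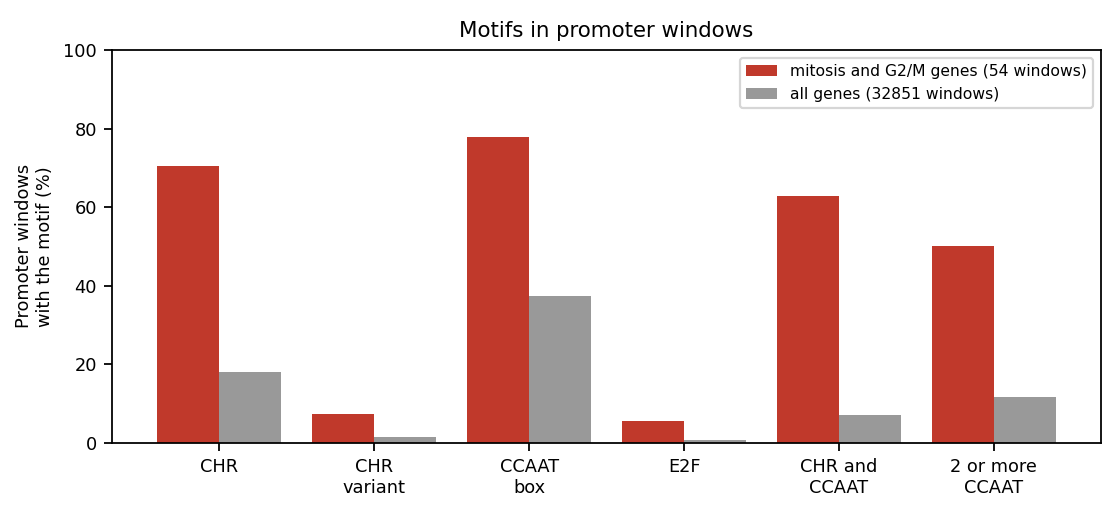
Share of promoter windows that hold each motif on either strand, in percent, for the 54 windows of the mitosis and G2/M genes (red) and all 32851 windows of the table (grey). The red bar is the higher of each pair, with 70.4% against 17.9% for TTTGAA (CHR).

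Regulators of mitotic entry had a median log2 fold change of -0.12. Cdc25c, a phosphatase that removes inhibitory phosphates from Cdk1, had 253 reads in the knockout library, against 649 in control 5 and 652 in control 6. That was 13.8 CPM in the knockout library (counting interval, exact Poisson, 12.2 to 15.7) against 42.3 ± 8.53 CPM in controls (SD, n = 2), with log2 fold change -1.61, SE 0.54 and adjusted p = 0.666 by edgeR. It was the largest difference among the members, and a gene on the opposite strand covers 12.7% of its exon bases, whose reads these unstranded counts cannot separate. Its relative Cdc25b had 8.92 CPM in the knockout library, against 8.71 in control 5 and 8.15 in control 6. Ccnb1, cyclin B1, had 131 CPM in the knockout library, against 171 in control 5 and 173 in control 6 (log2 fold change -0.40, SE 0.37), below controls that lay close together. Ccnb2 had 9.63 CPM in the knockout library, against 11.3 in control 5 and 9.86 in control 6, and Ccna2, cyclin A2, had 25.2 CPM in the knockout library, against 25.5 in control 5 and 26.5 in control 6, which set all libraries near each other for both. Of the exon bases of Ccna2, 12.5% are covered by Exosc9 on the other strand. Cdk1, the kinase itself, had 33.5 CPM in the knockout library, against 35.8 in control 5 and 21.4 in control 6, inside the range of the controls. Of the 8 genes of this role, the knockout library was below both controls in 6 and above both in 1. Over all tested genes it was below both for 31.1% and above both for 38.0%. For those at a mean of 5 CPM or more it was below both for 35.3% and above both for 35.8%. These shares also stand beside the counts of each role that follows.

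The mitotic kinases lay on both sides of the controls. Aurka, Aurora A, which matures centrosomes, had 120.3 CPM in the knockout library, against 226 in control 5 and 135 in control 6 (log2 fold change -0.58, SE 0.44), and Bub1b, the checkpoint kinase-like protein BubR1, had 92.6 CPM in the knockout library, against 150.0 in control 5 and 111 in control 6 (log2 fold change -0.49, SE 0.41). In both, control 5 stood well above the other 2 libraries. Aurkb, the kinase of the chromosomal passenger complex, had 173 CPM in the knockout library, against 150.5 in control 5 and 129 in control 6 (log2 fold change 0.31, SE 0.37). Ttk, the checkpoint kinase also called Mps1, had 19.6 CPM in the knockout library, against 16.8 in control 5 and 13.5 in control 6. In both, the knockout library was the highest. Plk1, Polo-like kinase 1, had 28.5 CPM in the knockout library, against 31.0 in control 5 and 38.5 in control 6, and Plk4, which drives centriole duplication, had 63.8 CPM in the knockout library, against 66.2 in control 5 and 63.4 in control 6. Over the 8 kinases the knockout library was below both controls in 3, between them in 3 and above both in 2.

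Checkpoint and anaphase genes had a median near 0. Cdc20, the activator of the anaphase-promoting complex, was the most abundant member per length, and had 202 CPM in the knockout library, against 224 in control 5 and 202 in control 6. Bub3, a checkpoint protein of unattached kinetochores, had 58.1 CPM in the knockout library, against 93.1 in control 5 and 66.5 in control 6 (log2 fold change -0.46, SE 0.44), and Sgol1, shugoshin, which protects centromeric cohesion, had 30.5 CPM in the knockout library, against 44.4 in control 5 and 39.1 in control 6 (log2 fold change -0.45, SE 0.48). Both were lowest in the knockout library. Pttg1, securin, and Ube2c, the ubiquitin-conjugating enzyme of the anaphase-promoting complex, were close to the controls, with 73.2 CPM in the knockout library, against 73.6 in control 5 and 70.7 in control 6 for Pttg1, and 57.2 CPM in the knockout library, against 56.5 in control 5 and 51.0 in control 6 for Ube2c, of whose exon bases 22.8% are covered by Tnnc2 on the other strand. Espl1, separase, had 17.2 CPM in the knockout library, against 5.64 in control 5 and 23.9 in control 6, so the knockout library fell inside a wide range set by the controls. The median log2 fold change of the 7 genes was -0.07.

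Among the kinesins, motor proteins that move along microtubules, Kif11 had the largest difference. Kif11, the motor that pushes spindle poles from each other (chromosome 19, 37376403 to 37421859, plus strand, GRCm38), had 668 reads in the knockout library, against 1168 in control 5 and 1133 in control 6. Its level was 36.6 CPM in the knockout library, against 74.6 ± 13.2 CPM in controls (SD, n = 2; log2 fold change -1.03, SE 0.45). Kif14, a motor of the midbody, was low in all libraries, at 7.99 CPM in the knockout library, against 16.2 in control 5 and 13.4 in control 6 (log2 fold change -0.89, SE 0.70). Kif2c, a depolymerase that corrects faulty attachments, had 85.9 CPM in the knockout library, against 121 in control 5 and 111 in control 6. Kif20a, needed late in cytokinesis, had 114 CPM in the knockout library, against 113 in control 5 and 109.5 in control 6, though 29.3% of its exon bases overlap Cdc23 on the other strand. Kif23, a subunit of centralspindlin, had 19.2 CPM in the knockout library, against 15.3 in control 5 and 18.7 in control 6. The knockout library was below both controls in 4 of the 8 kinesins and above both in 2.

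Kinetochore and passenger complex genes lay on both sides of the controls. Spc25, a subunit of the Ndc80 complex that grips microtubules, had 28.0 CPM in the knockout library, against 62.2 in control 5 and 42.6 in control 6 (log2 fold change -0.90, SE 0.50). Cenpf, a large kinetochore protein that appears in G2, had 65.7 CPM in the knockout library, against 114 in control 5 and 95.7 in control 6 (log2 fold change -0.67, SE 0.41), and Cenpe, the kinetochore kinesin, had 127 CPM in the knockout library, against 161 in control 5 and 189.9 in control 6. Ndc80 itself had 34.5 CPM in the knockout library, against 45.4 in control 5 and 41.2 in control 6. In each of these the knockout library was the lowest. Spc24, the partner of Spc25 in the same complex, had 79.0 CPM in the knockout library, against 69.8 in control 5 and 69.7 in control 6. Cenpa, the histone H3 variant that marks centromeres, had 98.2 CPM in the knockout library, against 87.6 in control 5 and 80.5 in control 6. Incenp, the scaffold of the passenger complex, had 91.9 CPM in the knockout library, against 82.9 in control 5 and 75.1 in control 6. In these the knockout library was the highest. Birc5, survivin, was the most abundant gene of the group per length, with 217 CPM in the knockout library, against 251 in control 5 and 209.9 in control 6 (log2 fold change -0.09, SE 0.36, which is positive when libraries are scaled by totals alone). Over the 11 genes, the knockout library was below both controls in 6 and above both in 3.

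Spindle proteins included Hmmr and Aspm, which were among the largest differences of the set. Hmmr, a microtubule-binding protein that places the spindle (chromosome 11, 40701395 to 40733422, minus strand, GRCm38), had 1859 reads in the knockout library, against 4096 in control 5 and 2618 in control 6. Its level was 48.1% of the control mean (log2 fold change -1.05, SE 0.39, adjusted p = 0.738 by edgeR). Aspm, which focuses spindle poles and whose human gene is mutated in microcephaly (chromosome 1, 139454772 to 139494091, plus strand), had 25.3 CPM in the knockout library, against 55.0 in control 5 and 50.0 in control 6 (log2 fold change -1.05, SE 0.47). Nusap1, which bundles spindle microtubules, had 116 CPM in the knockout library, against 195 in control 5 and 150.3 in control 6. Tpx2, the activator of Aurora A, was level at 188 CPM in the knockout library, against 187 in control 5 and 177 in control 6. Gtse1, a microtubule-binding protein of G2 and S phase, had 42.6 CPM in the knockout library, against 22.8 in control 5 and 38.7 in control 6, with the knockout library highest and close to control 6. Of the 8 spindle genes, the knockout library was below both controls in 4 and above both in 3.

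The 4 cytokinesis genes had the lowest median of any role, at -0.77. Anln, anillin, which organises the contractile ring (chromosome 9, 22332012 to 22389188, minus strand), had 51.2 CPM in the knockout library, against 112 in control 5 and 90.6 in control 6 (log2 fold change -0.98, SE 0.42, adjusted p = 0.821 by edgeR). Prc1, which bundles the central spindle (chromosome 7, 80294450 to 80316259, plus strand), had 51.7 CPM in the knockout library, against 109 in control 5 and 82.1 in control 6 (log2 fold change -0.89, SE 0.43). Of its exon bases, 11.1% are covered by Rccd1 on the other strand. Ect2, the exchange factor that activates RhoA at the cell equator, had 44.1 CPM in the knockout library, against 79.5 in control 5 and 59.1 in control 6. In these 3 genes the knockout library was lowest, as it was for 31.1% of all tested genes and 35.3% of those at a mean of 5 CPM or more. Racgap1, which recruits Ect2 to the midzone, lay between the controls, with 119 CPM in the knockout library, against 107 in control 5 and 134 in control 6 (log2 fold change -0.02, SE 0.39, which is positive when scaled by totals alone or corrected for GC content). Summed over the 4 genes, the level was 266 CPM in the knockout library, against 408 in control 5 and 366 in control 6.

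Of the chromosome genes, Top2a, the topoisomerase that untangles sister chromatids, had 224 CPM in the knockout library, against 300.3 in control 5 and 323 in control 6 (log2 fold change -0.48, SE 0.36). Mki67, which coats mitotic chromosomes and encodes the proliferation marker Ki-67, had 202 CPM in the knockout library, against 261 in control 5 and 209 in control 6 (log2 fold change -0.22, SE 0.37), close to control 6. Smc2, the core of condensin, had 122 CPM in the knockout library, against 181 in control 5 and 191 in control 6 (log2 fold change -0.61, SE 0.37), and its partner Ncapd2 had 93.6 CPM in the knockout library, against 89.8 in control 5 and 113 in control 6. The knockout library was below both controls in the first 3 and between them for Ncapd2. For both transcription factors of the program, the knockout library was above both controls. Mybl2, B-Myb, had 9.58 CPM in the knockout library, against 6.98 in control 5 and 4.15 in control 6 (log2 fold change 0.78, SE 0.89), and Foxm1 had 16.9 CPM in the knockout library, against 13.9 in control 5 and 10.8 in control 6 (log2 fold change 0.45, SE 0.65). Both were low, with 175 reads of Mybl2 in the knockout library, against 125 in control 5 and 56 in control 6, and neither passed the test.

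The other 14 members had log2 fold changes from -0.62 (Kif18a) to 0.14 (Dlgap5). Below both controls in the knockout library were Ccnf and Cdca3, which act in ubiquitin-dependent steps of the cell cycle, the kinesin Kif18a, the passenger subunit Cdca8, the Ndc80 complex subunit Nuf2 and the spindle protein Ckap2l. Between the controls were the kinases Nek2 and Bub1, the checkpoint protein Mad2l1, the kinesins Kif4 and Kif20b, the centromere protein Cenpi and the spindle protein Ckap2. Of the exon bases of Kif4, 15.1% are covered by Pdzd11 on the other strand. Dlgap5, which stabilises spindle microtubules, was above both, with 73.7 CPM in the knockout library, against 72.4 in control 5 and 61.4 in control 6. Kif18a, which damps chromosome movements, had 19.1 CPM in the knockout library, against 36.9 in control 5 and 21.6 in control 6.

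**Figure D3:**
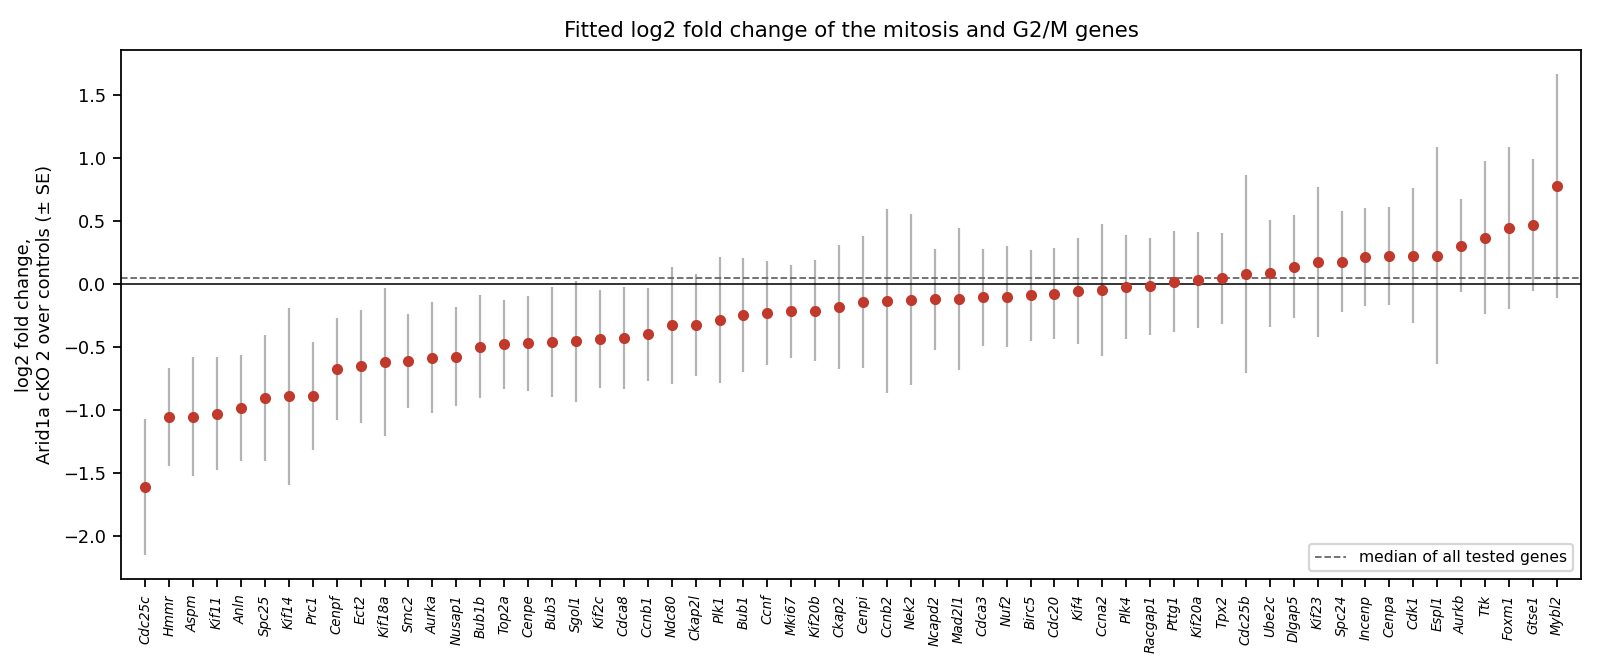
Fitted log2 fold change of each member, Arid1a cKO library over the 2 controls, with its standard error, in rising order. The dashed line is the median of all tested genes (0.05). The median of those at a mean of 5 CPM or more, where every member lay, was -0.006. Values run from -1.61 for Cdc25c to 0.78 for Mybl2, and none passed the test.

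The order of the members by level per length was nearly the same in every library. Per kilobase of exon, Cdc20 was first in each, at 108 CPM per kilobase in the knockout library, against 120.1 in control 5 and 108 in control 6. Birc5, Aurka, Aurkb, Ccnb1, Tpx2 and Cdca8, a passenger complex subunit, were also among the first 10 in all 3. Kif14, Mybl2 and Cdc25b were near the end in all 3, with Kif14 at 0.772 CPM per kilobase in the knockout library, against 1.56 in control 5 and 1.29 in control 6. Spearman's rho over the 60 genes was 0.952 between the knockout library and control 5, 0.957 with control 6 and 0.965 between the controls, as a description across genes that share gene length in each value.

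The members that were lowest in the knockout library tended to have transcripts of low GC content, and other genes showed a relation of the same sign. Spearman's rho between log2 fold change and the GC content of the longest transcript was 0.54 over the 60 members, 0.23 over 15207 tested genes, 0.31 over those at a mean of 5 CPM or more and 0.49 over 40 S phase genes, as a description across genes that share libraries. Over each control the members' rho was 0.55 (control 5) and 0.35 (control 6). In the 30 members at or below the members' median GC of 46.4%, such as Hmmr, Kif11, Aspm, Anln and Cenpf, the knockout library was below both controls in 20 and above both in 2. Their median log2 fold change was -0.43. In the 30 above it, such as Mybl2, Foxm1, Incenp and Aurkb, it was below both in 11 and above both in 12, with a median of -0.06. Among all tested genes, the knockout library was below both controls in 41.9% of those at or below that GC content and in 24.9% of those above it. It was above both in 28.0% of the genes at or below that GC content and in 43.7% of those above it. The members' median GC lay under that of all tested genes, 48.9%.

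A correction of each library for GC content, chosen after seeing the data, gave nearly the same counts of members. After it, the knockout library was below both controls in 30 members (50.0%, against 31.1% of all genes) and above both in 11 (18.3%, against 36.4%). The members' median was -0.15, and their rho with GC content was 0.12. The fitted log2 fold change came nearer to 0 in 36 members and moved farther from 0 in 24. It came nearer for Cdc25c (-1.43 after the correction, against -1.61 before it), Hmmr (-0.84 against -1.05), Aspm (-0.86 against -1.05), Kif11 (-0.83 against -1.03), Anln (-0.82 against -0.98) and Mybl2 (0.38 against 0.78). It moved farther for Cdc20 (-0.37 against -0.07), Plk1 (-0.60 against -0.29), Aurka (-0.67 against -0.58) and Ttk (0.59 against 0.37). Of the genes named at an unadjusted p under 0.05, Cdc25c and Hmmr were still under it and Anln was not. Over all genes the corrected fit passed 0, with 835 at an unadjusted p under 0.05.

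**Figure D4:**
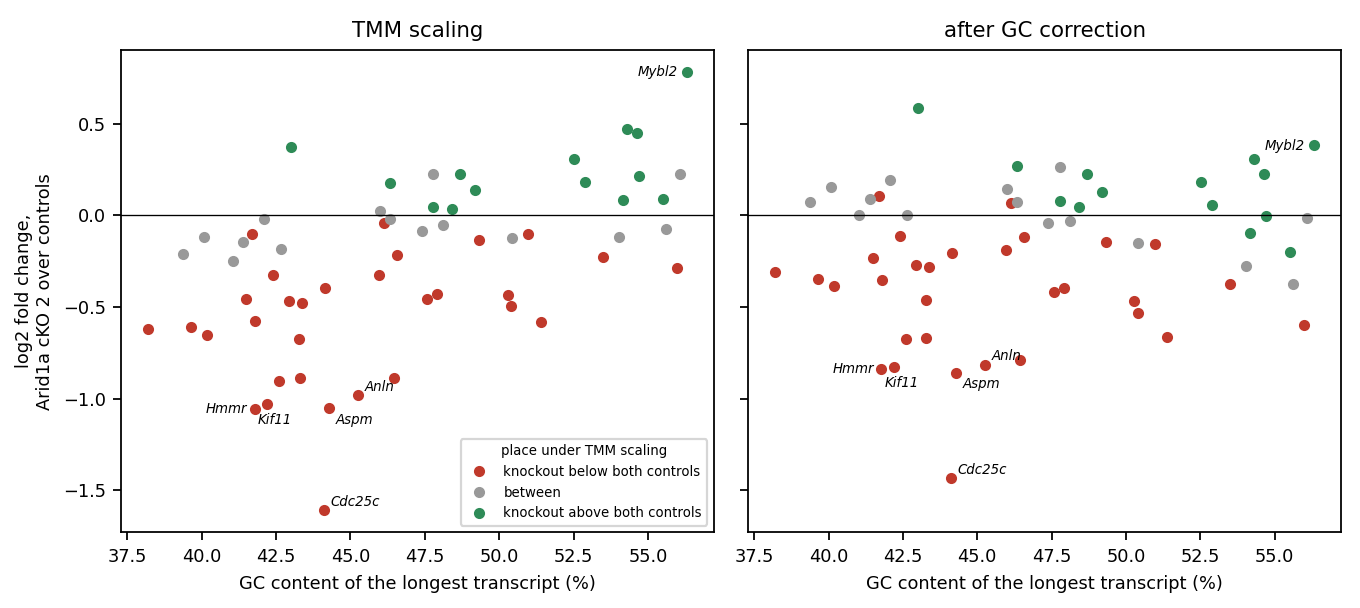
Log2 fold change of the 60 members (Arid1a cKO library over controls) against the GC content of the longest transcript, with TMM scaling (left) and after the GC correction (right); colour shows the place of the knockout library under TMM scaling. On the left the points rise with GC content (rho 0.54), and on the right they do so less (rho 0.12).

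The other genes of the mitotic machinery, 112 names in 6 lists of which 108 were tested, were examined in the same way. Of the names not tested, Wapal, Casc5 and Claspin are second names of the tested genes Wapl, Knl1 and Clspn, and the remaining one was Mybl1. The knockout library was below both controls in 43 of the 108 (39.8%) and above both in 24 (22.2%), where it was below both for 31.1% of all tested genes and 35.3% of those at a mean of 5 CPM or more, and above both for 38.0% and 35.8%. Their median log2 fold change was -0.21, and 0 passed the test over all genes by edgeR, with 1 lower and 1 higher at an unadjusted p under 0.05. Cohesin and condensin genes had a median of -0.42, with the knockout below both controls in 10 of 15. Among them the condensin subunits Ncaph and Ncapd3 had 148 CPM in the knockout library, against 263 in control 5 and 217 in control 6 for Ncaph (log2 fold change -0.70, SE 0.38), and 75.8 CPM in the knockout library, against 122 in control 5 and 129 in control 6 for Ncapd3 (log2 fold change -0.73, SE 0.39). Further kinetochore and centromere genes had a median of -0.40, with 12 of 25 below both, including Nsl1, a subunit of the Mis12 complex, at 33.4 CPM in the knockout library, against 57.6 in control 5 and 76.4 in control 6, and the checkpoint protein Zwilch at 32.7 CPM in the knockout library, against 68.4 in control 5 and 58.5 in control 6.

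Subunits and regulators of the anaphase-promoting complex had a median of 0.07 over 17 genes. Their 2 smallest p-values pointed opposite ways, with Cdc27 at 46.3 CPM in the knockout library, against 96.1 in control 5 and 62.8 in control 6, and Anapc11 at 96.8 CPM in the knockout library, against 70.0 in control 5 and 56.9 in control 6. The further spindle genes had a median of -0.13 over 22, where Numa1, a spindle pole protein, had 164 CPM in the knockout library, against 44.8 in control 5 and 127 in control 6, with controls far apart, and Kif24 had 13.3 CPM in the knockout library, against 1.79 in control 5 and 6.82 in control 6. The MuvB, pocket protein and E2F genes, which regulate transcription of the members, had a median of -0.11 over 18. Lin9, a MuvB subunit, had 322 reads in the knockout library, against 778 in control 5 and 695 in control 6 (log2 fold change -1.43, SE 0.51, adjusted p = 0.713 by edgeR). E2f2, an activator E2F, had 31.6 CPM in the knockout library, against 16.1 in control 5 and 11.3 in control 6 (log2 fold change 1.20, SE 0.57). The G2 checkpoint genes had a median of -0.13 over 11. Among them the knockout library was below both controls in 2, between them in 7 and above both in 2, beside 31.1%, 30.9% and 38.0% of all tested genes. In the G2 checkpoint list, Cdkn1a, the inhibitor p21, had 206 CPM in the knockout library, against 115 in control 5 and 92.6 in control 6 (log2 fold change 0.99, SE 0.37, adjusted p = 0.755 by edgeR), and Wee1, the kinase that holds Cdk1 inactive, had 10.3 CPM in the knockout library, against 15.4 in control 5 and 13.9 in control 6. None of these passed the test.

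Genes of earlier phases gave a setting for the mitotic values. In a list of 41 S phase genes, of which 40 were tested, the knockout library was below both controls in 13 (32.5%) and above both in 12 (30.0%), and the median log2 fold change was -0.06. Their summed level was 3803 CPM in the knockout library, against 4387 in control 5 and 3534 in control 6, so the knockout library lay between the controls. The ratio of the summed mitosis and G2/M level to the summed S phase level was 1.21 in the knockout library, against 1.35 in control 5 and 1.48 in control 6, lowest in the knockout library. The G1 list of 9 genes held D cyclins, Cdk2, Cdk4 and Cdk6, and also the kinase inhibitors Cdkn1b, Cdkn2c and Cdkn2d. Cdkn2d was above both controls, with 81.7 CPM in the knockout library, against 56.5 in control 5 and 52.2 in control 6. Cdkn1b and Cdkn2c lay between the controls. Over the 9 genes, the knockout library was above both controls in 4, between them in 3 and below both in 2, at a median of 0.41, the value of Cdkn2c. Over all tested genes it was above both for 38.0% and below both for 31.1%. Cdk6 was below both, with 372 CPM in the knockout library, against 580 in control 5 and 435 in control 6. Ccnd1, cyclin D1, had 3462 reads in the knockout library, against 980 in control 5 and 946 in control 6. Its level was 189.5 CPM in the knockout library, against 54.7 in control 5 and 70.1 in control 6 (log2 fold change 1.60, SE 0.38, adjusted p = 0.348 by edgeR). Its kinase partner Cdk4 had 295 CPM in the knockout library, against 149 in control 5 and 167 in control 6 (log2 fold change 0.90, SE 0.35). Both were above both controls and neither passed the test over all genes. Whether the mitotic list differed from the S phase or G1 list was not tested.

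**Figure D5:**
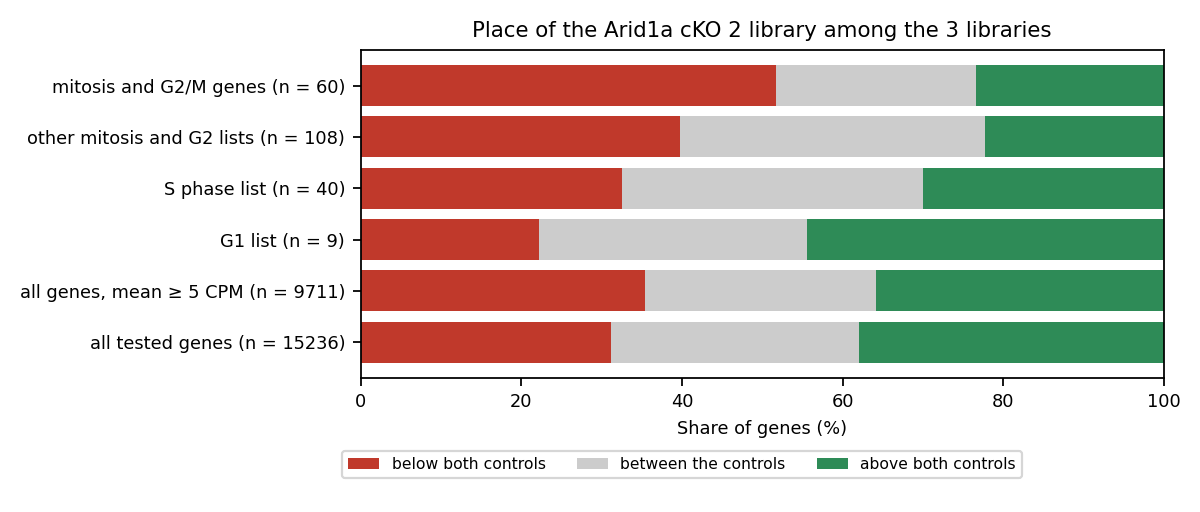
Share of genes, in percent, for which the Arid1a cKO library was below both controls (red), between them (grey) or above both (green), by gene list. The red part is 51.7% for the mitosis and G2/M genes, against 39.8% of the other mitosis and G2 lists pooled, 32.5% of the S phase list, 35.3% of genes at a mean of 5 CPM or more and 31.1% of all tested genes.

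Markers of other cell types were present in every library, and their part in the mitotic values was not tested. Neuronal markers summed to 141 CPM in the knockout library, against 180.0 in control 5 and 194 in control 6, with the knockout below both controls in 3 of 8 and above both in 3. Of these Neurod6, a factor of cortical neurons, had 41.8 CPM in the knockout library, against 81.7 in control 5 and 65.1 in control 6. The 5 tested erythroid markers summed to 38.6 CPM in the knockout library, against 37.6 in control 5 and 44.4 in control 6, below both controls in 1 of 5 and above both in 2. The 5 tested endothelial markers summed to 25.9 CPM in the knockout library, against 34.5 in control 5 and 40.8 in control 6. Of these the knockout library was below both controls in 3 and above both in 2. Pecam1, an adhesion protein, had 3.89 CPM in the knockout library, against 20.5 in control 5 and 27.3 in control 6 (log2 fold change -2.62, SE 0.71). Kdr went the other way, with 14.3 CPM in the knockout library, against 7.32 in control 5 and 6.52 in control 6 (log2 fold change 1.04, SE 0.74). Of the 11 tested progenitor markers, the knockout library was below both controls in 3 and above both in 3. Slc1a3 was below both, with 3.34 CPM in the knockout library, against 7.76 in control 5 and 14.9 in control 6. Pax6 was above both, with 3.01 CPM in the knockout library, against 1.62 in control 5 and 2.22 in control 6.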

How the data were processed

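RNA from sorted microglia of embryonic day 14 mice was sequenced, per the labels' protocols, from unstranded libraries. Bowtie2 2.2.3, TopHat2 2.0.12, HTSeq 0.6.0 and the build mm9 are named in the submitters' processing notes. The gene positions in the tables are not of that build: 53 of the 60 members match GENCODE M21 on GRCm38 exactly. The authors deposited 2 tables with raw read counts per gene, each setting the knockout library beside 1 control, and the log2 fold change of each pair's normalised values. The knockout counts were identical in both.

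Counts of the 16655 shared genes were fitted with edgeR 4.0.16 in R 4.3.3, with filterByExpr, TMM factors and the quasi-likelihood F test, two-sided, at a Benjamini-Hochberg adjusted p of 0.05 over the 15236 genes kept. Only the controls give residual freedom, 1 degree, and the knockout library is taken to vary like them. Each SE is the fold change divided by the square root of F. Ratios over single controls used a prior count of 2. Intervals cover counting error only. Members are described in full by rule: Mki67, Top2a, Cdk1 and Ccnb1, and in each role the 2 smallest p-values and the highest level per length at a mean of 5 CPM or more; further members are named after their values were seen. The rule for other lists gave the 2 smallest p-values. Members and lists were chosen with earlier results of these data known. Alternatives were DESeq2 1.42.0 (size factors and Wald test), upper-quartile factors, library totals, other filters, genes of either table, each control alone and a GC correction by loess.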

Additional observations from a re-analysis of the deposited data

How the results depend on the processing

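No member passed the test under any of the 8 fitted alternatives; of 200 values of the 25 described members under them, 196 kept their direction. With library totals alone the log2 fold changes of Birc5, Cdc20 and Racgap1 became 0.037, 0.051 and 0.104, and with the GC correction that of Racgap1 became 0.075. The 200 values do not include ratios over a single control. With control 5 left out, Birc5 (0.046) and Cdc20 (0.006) changed sign from the main fit. With control 6 left out, Cdk1 (-0.096) and Racgap1 (0.149) did so. The members' median log2 fold change stayed under 0 throughout, at -0.039 with library totals. With 1 control left out it was -0.25 to -0.14, the knockout library was below the remaining control in 36 to 41 members and above it in 19 to 24. Over all genes it was below control 5 for 44.5% and below control 6 for 48.7%. Over all genes, edgeR called 0 higher and 0 lower with DESeq2 size factors (895 at an unadjusted p under 0.05), upper-quartile factors (818), no low-count filter (948) and the GC correction (835). It called 4 higher with library totals and 5 with genes of either table, where the main analysis called 2 higher and 4 lower. With a filter of 5 CPM in 2 libraries it called 17 higher and 27 lower, and DESeq2's Wald test 66 higher and 157 lower. The causes were not tested. No paired analysis was possible because the groups share no replicate number. With 1 knockout library and 1 residual degree of freedom, a p that misses the threshold does not show that levels were alike.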
